A study of Rattus norvegicus with 10 samples.

Results

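Small nucleolar RNAs and their relatives of the Cajal body were followed in RNA-seq libraries made from the CA1 field of rat hippocampal slices. The members are the rows of the count table whose gene name begins with SNORD, SNORA, snoU, snoZ or SCARNA, which were 1673 of the 32545 rows. They carry only 201 different names, because many copies in the rat genome share a name, and rows with the same name are told apart here by their Ensembl gene ID. By the start of the name, 353 rows were of the C/D box class (SNORD, snoU and snoZ), 1269 of the H/ACA box class (SNORA) and 51 of the Cajal body class (SCARNA). The rule reads the gene name alone.

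The slices came from male Wistar rats of 5 to 7 weeks, with 2 slices taken from 2 biological samples for a repeat. There were 5 groups of 2 libraries. The SKF group received an agonist of the dopamine D1/D5 receptors. SKF+Aβ received in addition 200 nM oligomers of Aβ(1–42), the amyloid peptide of Alzheimer's disease. SKF+Aβ+CSP further received CSP, a carbon nanosphere made from glucose that serves as vehicle, and SKF+Aβ+CSP-TTK21 received the same sphere loaded with TTK21, which activates CBP and p300, enzymes that acetylate histones, both at 0.36 µg/ml. The group CSP-TTK21 alone had neither SKF nor Aβ. In lists of values, the words with Aβ added, with Aβ and CSP and with Aβ and CSP-TTK21 stand for the 3 groups that had both SKF and Aβ. All slices had 30 min of basal stimulation and were collected 1 h after treatment. An untreated group is not analysed here, so SKF, itself a treated group, is the reference of every comparison with a baseline.

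Small nucleolar RNAs are short, stable RNAs that are mostly cut out of the introns of longer host transcripts. C/D box RNAs guide methylation of ribose in ribosomal RNA with the enzyme fibrillarin, H/ACA box RNAs guide the conversion of uridine to pseudouridine with dyskerin, and Cajal body RNAs guide both kinds of change in the small nuclear RNAs of the spliceosome. In brain a large set of C/D box RNAs without a known ribosomal target is made from imprinted loci: SNORD115 and SNORD116 from the paternal allele of the Prader-Willi region, and SNORD113 from the maternal allele of the Dlk1-Dio3 region. Mature small nucleolar RNAs are shorter than most RNA-seq fragments, so libraries of this kind capture them only in part, and the longer members, such as several Cajal body RNAs, are captured more readily.

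Library totals lay between 6753742 and 8473407 counts, at which 3 counts, taken as the floor of detection, equal 0.354 to 0.444 CPM, the usual scaling of a count to the library total. The libraries of a group differed by more than counting noise, also over the members alone, their chi-square being 2.61 to 3.86 times its degrees of freedom. In excitatory neurons, 5 of 5 markers were counted, with a summed level of 3410 to 4915 CPM, and the 3 dentate granule markers summed to 196 to 299 CPM, so that transcripts of the neighbouring dentate gyrus were present in every library. The excitatory neuron sum was 4332 to 4915 CPM in SKF, 3825 to 3955 with Aβ added, 3410 to 3761 with Aβ and CSP, 4341 to 4379 with Aβ and CSP-TTK21, and 3657 to 4128 under CSP-TTK21 alone. It was higher in SKF than with Aβ added, although 2 of its 5 genes, Neurod6 and Wfs1, had estimates of 0.29 and 0.40 (log2) in that comparison. The 4 oligodendrocyte markers summed to 14809 to 22185 CPM in SKF and 10116 to 14310 with Aβ added, with a median log2 difference of -0.49, and to 13709 to 23026 in the other groups. Other lists were higher with Aβ added: the interneuron sum was 332 to 337 CPM in SKF and 343 to 488 with Aβ added, and the sum of 3 markers of the meninges 9.52 to 12.7 and 15.2 to 27.8. The dentate granule median log2 difference was 0.37, but its sums overlapped, at 196 to 238.5 CPM in SKF and 227 to 299 with Aβ added. Slc32a1 of the interneuron list and C1ql2 of the dentate list went the other way, at -0.34 and -0.09. Blood markers summed to 134 to 136 CPM in SKF and 106 to 130 elsewhere. They did not move together: in SKF+Aβ against SKF, Hba1 was at -0.39, Hbb at 0.02 and Alas2 at 0.71 (log2). No gene of the 10 cell type lists was called by edgeR in SKF+Aβ against SKF. Mitochondrial transcripts took 3.58% and 5.52% of the counts in SKF and 5.88% to 7.71% in the other libraries. The part of these differences in the results that follow was not tested, and in bulk RNA fewer cells of a type cannot be told apart from less RNA per cell.

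Of the members, 733 rows had no count in any library, 762 had counts but fell below edgeR's filter on low counts, and 178 were tested. The tested rows held 88.5% of the members' counts. Of the C/D rows 96 were tested, of the H/ACA rows 71 and of the Cajal body rows 11, holding 91.6%, 75.7% and 98.8% of the counts of their class. The name SNORA17 alone has 675 rows, of which 269 had counts and 8 were tested. Counts were concentrated in a few rows: SNORA48 (ENSRNOG00000060816) held 33.8% of the H/ACA counts, a single Cajal body row 33% of that class, and snoU85 (ENSRNOG00000060559) 27.8% of the C/D class. The last needs care, since U85 is known as a Cajal body RNA of mixed C/D and H/ACA structure that modifies U5, and U89 is another. The name rule puts both under C/D, and results are also given with snoU85 and snoU89 moved to the Cajal body class and snoU109 to H/ACA, a setting added after the data were seen. The low snoU2_19 and snoU2-30, whose names point to guides of the spliceosomal U2, stayed under C/D in both.

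The share of all members together did not pass the test for a difference among the groups, while the class shares within it lay on different sides of SKF. In CPM of the library total, all members made up 1319 ± 128 in SKF, 1567 ± 49.8 with Aβ added, 1459 ± 122 with Aβ and CSP, 1353 ± 70.2 with Aβ and CSP-TTK21, and 1514 ± 31.7 under CSP-TTK21 alone (mean ± SD, n = 2 in each). An exact permutation test over the 945 ways to join 10 libraries into pairs gave p = 0.186 for a difference among the 5 groups (adjusted p = 0.213 over the 16 tests on shares and ratios). The other 8 libraries were 1.12-fold above SKF, with an exact two-sided p of 0.111 over the 45 ways to choose 2 libraries, where 0.0222 is the smallest possible. With 2 libraries against 2, the smallest two-sided p would be 0.333, so pairs of groups were not tested in this way. The test of SKF treats the 10 libraries as exchangeable, although they came in 5 groups. Over all 14215 rows with a mean of at least 10 counts, 9.83% had both SKF libraries below the other 8, and 7.82% above. A p of 0.0222 for SKF therefore does not by itself set a measure apart from other rows. Sums and ratios of other rows were not tested. The 16 tests share counts, since the measures overlap and each was tested both ways, so they are not independent. The adjusted p of 0.0433 that recurs below is a single value. It is set by the C/D test over the 5 groups (exact permutation p = 0.0243) and carried to the lower p-values. Wilson intervals at 95% on these shares reached at most 2.08% of the value to either side, and at most 5.47% for the classes; they cover counting error only, and the SD between libraries was mostly larger.

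H/ACA box RNAs were lower in the SKF libraries than in all the others. Their share was 351.5 and 379.2 CPM in SKF, 567.4 and 479.7 with Aβ added, 470.4 and 560.3 with Aβ and CSP, 395.6 and 460.7 with Aβ and CSP-TTK21, and 474.5 and 518.1 under CSP-TTK21 alone. The highest SKF library thus lay below the lowest of the other 8, and the others averaged 1.34-fold SKF (exact permutation p = 0.0222, adjusted p = 0.0433). Given the background of all rows above, this p, here and for the measures below, is not evidence particular to a class or ratio. Among the 5 groups the exact permutation test gave p = 0.0688 (adjusted p = 0.0917). Without either SKF library the smallest p that 1 library against 8 allows is 0.111, so these comparisons with SKF cannot pass the threshold on one SKF library.

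C/D box RNAs followed the same order of SKF and SKF+Aβ, and the share of the class was higher in every other library than in SKF. By name the class took 490.9 ± 54.2 CPM in SKF, 673.5 ± 7.35 with Aβ added, 602.7 ± 70.8 with Aβ and CSP, 539.0 ± 6.88 with Aβ and CSP-TTK21, and 582.1 ± 4.39 under CSP-TTK21 alone (SD, n = 2), and the 5 groups differed with an exact permutation p of 0.0243 (adjusted p = 0.0433). The other libraries were 1.22-fold SKF (exact permutation p = 0.0444, adjusted p = 0.0711). Without the imprinted families the log2 difference of the C/D share from SKF fell from 0.29 to 0.0737 and the exact permutation test over the 5 groups gave p = 0.432. This class also depended on single libraries: without the first SKF library the log2 difference fell from 0.29 to 0.17 and the test over the 5 groups gave an exact p of 0.116, and without the first or the second library of SKF+Aβ, SKF+Aβ+CSP-TTK21 or CSP-TTK21 alone that p was between 0.0783 and 0.107. With snoU85, snoU89 and snoU109 in the classes they are known for, the C/D share became 302.1 CPM in SKF and 497.4 in SKF+Aβ, 1.39-fold SKF over the other 8 libraries, with exact permutation p-values of 0.00847 for the 5 groups and 0.0222 for SKF against the rest.

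The imprinted C/D families (SNORD113, SNORD115, SNORD116, SNORD107, SNORD64 and their relatives) separated furthest. They took 176.5 ± 6.54 CPM in SKF, 321.9 ± 7.38 with Aβ added, 285.7 ± 57.2 with Aβ and CSP, 239.9 ± 10.1 with Aβ and CSP-TTK21, and 235.7 ± 2.64 under CSP-TTK21 alone (SD, n = 2). All 8 other libraries lay above both SKF libraries, with a mean 1.52-fold higher (exact permutation p = 0.0222, adjusted p = 0.0433), and the test over the 5 groups gave p = 0.0180 (exact permutation, adjusted p = 0.0433). The remaining C/D rows, without the imprinted families and without snoU85, snoU89 and snoU109, had a different pattern. They stood at 131.6 and 119.5 CPM in SKF, 180.7 and 170.3 with Aβ added, 163.3 and 188.4 with Aβ and CSP, 125.0 and 126.6 with Aβ and CSP-TTK21, and 136.8 and 135.6 under CSP-TTK21 alone. The 4 libraries with Aβ but without TTK21 were thus all above the other 6, and the exact permutation test over the 5 groups gave p = 0.0286, while SKF against the other 8 gave an exact p of 0.178. This subset was set apart after the data were seen.

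Cajal body RNAs went the other way in the 3 groups with Aβ, while CSP-TTK21 alone lay between the SKF libraries. Their share was 424.2 and 500.4 CPM in SKF, 366.5 and 373.4 with Aβ added, 350.0 and 331.9 with Aβ and CSP, 363.9 and 407.8 with Aβ and CSP-TTK21, and 432.4 and 439.8 under CSP-TTK21 alone. The 5 groups differed with an exact permutation p of 0.0169 (adjusted p = 0.0433), and the other 8 libraries averaged 0.828-fold SKF, with overlap (exact permutation p = 0.0667, adjusted p = 0.0917). With snoU85 and snoU89 added to the class, the share was 650.2 in SKF and between 480.9 and 644.4 in the means of the other groups, and the exact permutation test over the 5 groups gave p = 0.102. Without either library of SKF+Aβ, SKF+Aβ+CSP or CSP-TTK21 alone, the p over the 5 groups was between 0.0519 and 0.0825 (exact permutation), and without the second SKF library the log2 difference of -0.27 became -0.15. On a library total without mitochondrial and other small structural RNAs the p over the 5 groups was 0.0635 (exact permutation), and without SCARNA7, the row with the highest count, the difference from SKF was -0.46 (exact permutation p = 0.0222).

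**Figure D1:**
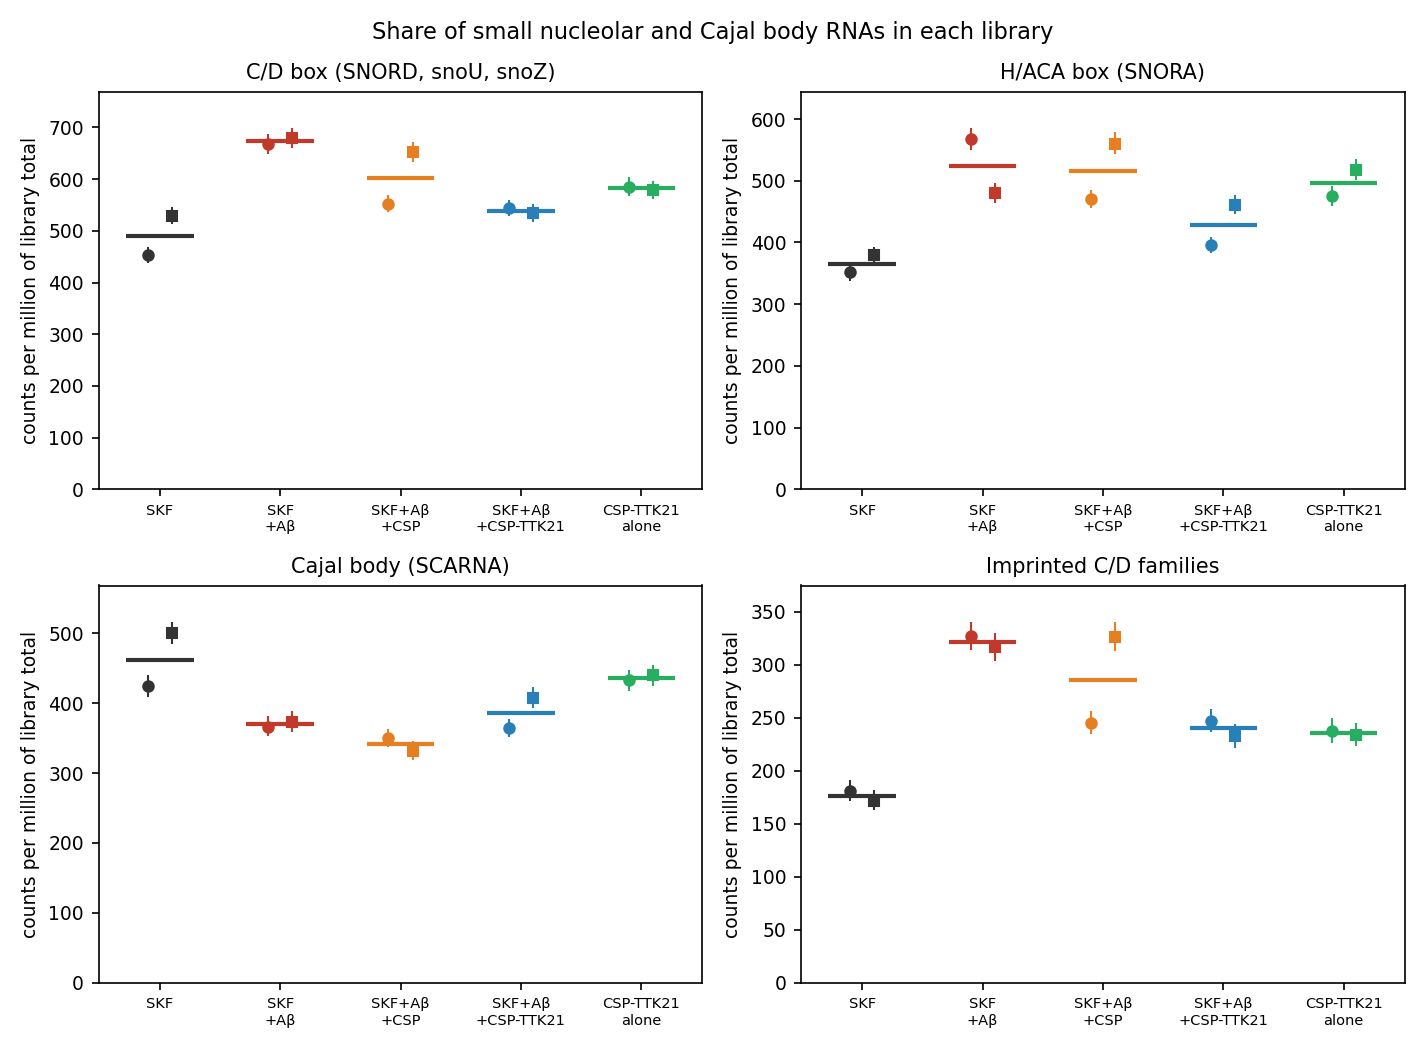
Share of each class in CPM of the library total, for the 5 groups on the horizontal axis. Circles and squares are the first and second library, vertical lines their 95% Wilson intervals, and bars the mean of the group; SKF lies below all other libraries for the H/ACA box, C/D box and imprinted C/D panels, and the Cajal body share is highest in the second SKF library.

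The ratio of Cajal body to H/ACA counts set these classes against each other in a single value per library. It was 1.21 and 1.32 in SKF, 0.646 and 0.778 with Aβ added, 0.744 and 0.592 with Aβ and CSP, 0.920 and 0.885 with Aβ and CSP-TTK21, and 0.911 and 0.849 under CSP-TTK21 alone. Both SKF libraries lay above all others, and the groups with Aβ but without TTK21 lay lowest. The other libraries averaged 0.620-fold SKF (exact permutation p = 0.0222, adjusted p = 0.0433), and the 5 groups differed with p = 0.0180 (exact permutation, adjusted p = 0.0433). With snoU85, snoU89 and snoU109 moved, the ratio was still lower outside SKF, by a factor of 0.642 (exact permutation p = 0.0222). The ratio of C/D to H/ACA counts, in contrast, ranged from 1.12 to 1.41 over the libraries and gave no call (exact permutation p = 0.519 for the 5 groups and 0.200 for SKF against the rest, adjusted p = 0.519 and 0.213).

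Other small structural RNAs in the same libraries did not move as one with the members. The signals of 7SK, which holds back transcription elongation, were 3920 and 4320 CPM in SKF against 2840 to 3830 elsewhere. For nuclear RNase P, which trims transfer RNA, the values were 3940 and 4950 against 1790 to 3350. Y RNA took 22 to 24.1 CPM in SKF and 42 to 92.9 elsewhere, and the spliceosomal U6 68.1 and 76.0 against 75.1 to 147. Thus 7SK and RNase P were highest in SKF, with no overlap, while Y RNA was lowest there, as the H/ACA class was. The ratio of all members to the other small structural RNAs also took in further names, such as U1, U4 and 5S ribosomal RNA. It was 0.139 and 0.134 in SKF and 0.170 to 0.270 in the other libraries, 1.55-fold higher (exact permutation p = 0.0222, adjusted p = 0.0433). Over the 5 groups p was 0.0169 (exact permutation, adjusted p = 0.0433). The denominator itself was 8811 and 10510 CPM in SKF and 5732 to 8266 elsewhere. All members alone were 1.12-fold SKF (exact permutation p = 0.111), so the ratio is not a measure of the members by themselves. The part of these differences in the results on the members was not tested.

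Single members were compared in one edgeR quasi-likelihood fit of all 10 libraries, and their levels are given as CPM on totals adjusted by edgeR's TMM factors. In this fit 15032 rows were tested, with p-values adjusted over all of them by the Benjamini-Hochberg method. SKF+Aβ against SKF called 8 of 178 members at an adjusted p under 0.05, 7 higher and 1 lower. Of all rows tested, 2.08% were called, 1.22% higher and 0.852% lower. With the study's further limit of a log2 fold change beyond 1.5, 6 members were called, all higher, where 0.146% of all rows were. At an unadjusted p under 0.05 there were 58 members, 54 of them higher, against 22.8% of all rows, of which 12% were higher. The median log2 fold change was 0.63 over the tested members, 0.80 for C/D, 0.47 for H/ACA and -0.28 for Cajal body rows, and near 0 over all rows tested. The filter on low counts works by group, so a row that passed it only through the group where it was high had to differ, and these medians and counts are a description. The number of calls rested on single libraries: without the first SKF library, or either library of SKF+Aβ or SKF+Aβ+CSP, 0 members were called, without the second SKF library 1, against 1.11% of all rows, and without a library of SKF+Aβ+CSP-TTK21 or CSP-TTK21 alone 7. Of all rows, 0.00644% to 0.167% were called in the fits with 0 members called and 1.16% to 1.92% in those with 7. By limma the same 8 members were called, against 2.33% of all rows. DESeq2, whose own filter gives no adjusted p to rows it judges too low, gave one to 15 of the 178 members and to 9495 of all rows. It called 4 of the 15, 2 higher and 2 lower, and 8.62% of all rows that had an adjusted p; of the 8 edgeR calls 2 were among the 4 and 6 had no adjusted p.

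Among the called H/ACA rows was SNORA23 (ENSRNOG00000057923), a guide for the large-subunit ribosomal RNA and the row with the lowest p over the 5 groups. It had 7 and 5 in SKF, 39 and 26 with Aβ added, 30 and 41 with Aβ and CSP, 39 and 37 with Aβ and CSP-TTK21, and 33 and 23 under CSP-TTK21 alone. All 8 other libraries were above both SKF libraries. The level rose from 0.818 ± 0.212 CPM in SKF to 4.66 ± 1.11 in SKF+Aβ (SD, n = 2), a log2 fold change of 2.49 (SE 0.47, edgeR adjusted p = 0.0355). Its values against SKF were 2.51 with Aβ and CSP, 2.63 with Aβ and CSP-TTK21, and 2.22 under CSP-TTK21 alone, with edgeR adjusted p-values of 0.0572, 0.08 and 0.633. SNORA63 (ENSRNOG00000056834), an H/ACA RNA that also acts on ribosomal RNA, had 12 and 18 in SKF, 42 and 49 with Aβ added, 36 and 40 with Aβ and CSP, 44 and 41 with Aβ and CSP-TTK21, and 31 and 42 under CSP-TTK21 alone. Here too SKF stood below every other library, and SKF+Aβ was 3.21-fold SKF (log2 1.68, SE 0.35, edgeR adjusted p = 0.0401).

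SNORD44 (ENSRNOG00000055652), a C/D box guide for the small-subunit ribosomal RNA that is encoded in the host gene Gas5, was also called. Its counts were 20 and 14 in SKF, 51 and 49 with Aβ added, 49 and 41 with Aβ and CSP, 47 and 31 with Aβ and CSP-TTK21, and 27 and 32 under CSP-TTK21 alone. Scaled for depth, both SKF libraries lay below all others and both SKF+Aβ libraries above all others. SKF+Aβ had 7.21 ± 0.127 CPM against 2.32 ± 0.633 in SKF (SD, n = 2), which is a log2 fold change of 1.63 (SE 0.33, edgeR adjusted p = 0.0376), and the estimates in the 3 further comparisons with SKF were 1.34, 1.17 and 0.80, none called. SNORD75 (ENSRNOG00000055952), from the same host, had 22 and 25 in SKF, 35 and 42 with Aβ added, 52 and 49 with Aβ and CSP, 27 and 27 with Aβ and CSP-TTK21, and 13 and 24 under CSP-TTK21 alone. It was not called in any comparison, and its highest values were in SKF+Aβ and SKF+Aβ+CSP, at log2 0.80 and 1.05 against SKF (edgeR adjusted p = 0.186 and 0.13). SNORD14 (ENSRNOG00000061656), required in the making of the small ribosomal subunit, rose by 2.80 on the log2 scale (SE 0.62, edgeR adjusted p = 0.0424), from only 4 and 5 counts in SKF. Summed over the 4 rows of its name it was at 1.44 (SE 0.38, edgeR adjusted p = 0.0615) and was not called.

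SCARNA2 (ENSRNOG00000051850), a Cajal body RNA that guides changes in U2, was the one member called lower. It had 951 and 1392 in SKF, 552 and 607 with Aβ added, 759 and 445 with Aβ and CSP, 741 and 817 with Aβ and CSP-TTK21, and 987 and 813 under CSP-TTK21 alone. Both SKF libraries were above those of SKF+Aβ, SKF+Aβ+CSP and SKF+Aβ+CSP-TTK21, but the SKF libraries themselves differed, and CSP-TTK21 alone overlapped them. The mean was 159 ± 38.4 CPM in SKF, 83.8 ± 9.45 with Aβ added, 77.5 ± 17.3 with Aβ and CSP, 106 ± 15.4 with Aβ and CSP-TTK21, and 124 ± 21.3 under CSP-TTK21 alone (SD, n = 2). The fall in SKF+Aβ was -0.92 on the log2 scale (SE 0.20, edgeR adjusted p = 0.0422). In SKF+Aβ+CSP the estimate was -1.03 (edgeR adjusted p = 0.0572), with Aβ and CSP-TTK21 it was -0.59 (edgeR adjusted p = 0.151), and under CSP-TTK21 alone -0.36 (edgeR adjusted p = 0.671).

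The other frequent Cajal body RNAs were less uniform. SCARNA13 (ENSRNOG00000059389) had 790 and 821 in SKF, 570 and 595 with Aβ added, 688 and 507 with Aβ and CSP, 703 and 754 with Aβ and CSP-TTK21, and 634 and 776 under CSP-TTK21 alone. Scaled for depth it was the one member with a mean of 10 or more counts that was higher in both SKF libraries than in all others, at -0.38 on the log2 scale in SKF+Aβ (SE 0.14, edgeR adjusted p = 0.133). SCARNA7 (ENSRNOG00000053927), the row with the highest count of its class, had 829 and 960 in SKF, 984 and 916 with Aβ added, 1046 and 881 with Aβ and CSP, 1070 and 941 with Aβ and CSP-TTK21, and 896 and 1149 under CSP-TTK21 alone, with log2 differences from SKF of only 0.06 to 0.20. For SCARNA6 (ENSRNOG00000053606) and SCARNA21 (ENSRNOG00000057490) the estimates in SKF+Aβ were -0.34 (SE 0.21) and -0.25 (SE 0.24), and neither was called. SCARNA1 (ENSRNOG00000057829), a low row of 5 and 7 counts in SKF and 10 to 32 elsewhere, was lowest in SKF. The class thus held rows that stood on either side of SKF.

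The Cajal body RNAs U89 and U85, listed under snoU names, likewise differed. snoU89 (ENSRNOG00000052563) had 150 and 201 in SKF, 82 and 88 with Aβ added, 127 and 68 with Aβ and CSP, 102 and 95 with Aβ and CSP-TTK21, and 159 and 114 under CSP-TTK21 alone. SKF+Aβ lay below both SKF libraries, with a log2 fold change of -0.95 (SE 0.24) that missed the call at an edgeR adjusted p of 0.0584. snoU85 had 834 and 1588 in SKF, 1028 and 1192 with Aβ added, 1084 and 856 with Aβ and CSP, 1280 and 1174 with Aβ and CSP-TTK21, and 1293 and 1434 under CSP-TTK21 alone. Its SKF libraries were the lowest and the highest of all 10 in raw counts, and its log2 difference in SKF+Aβ was -0.03 with an SE of 0.21, so that a change of moderate size was not detectable for this row.

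**Figure D2:**
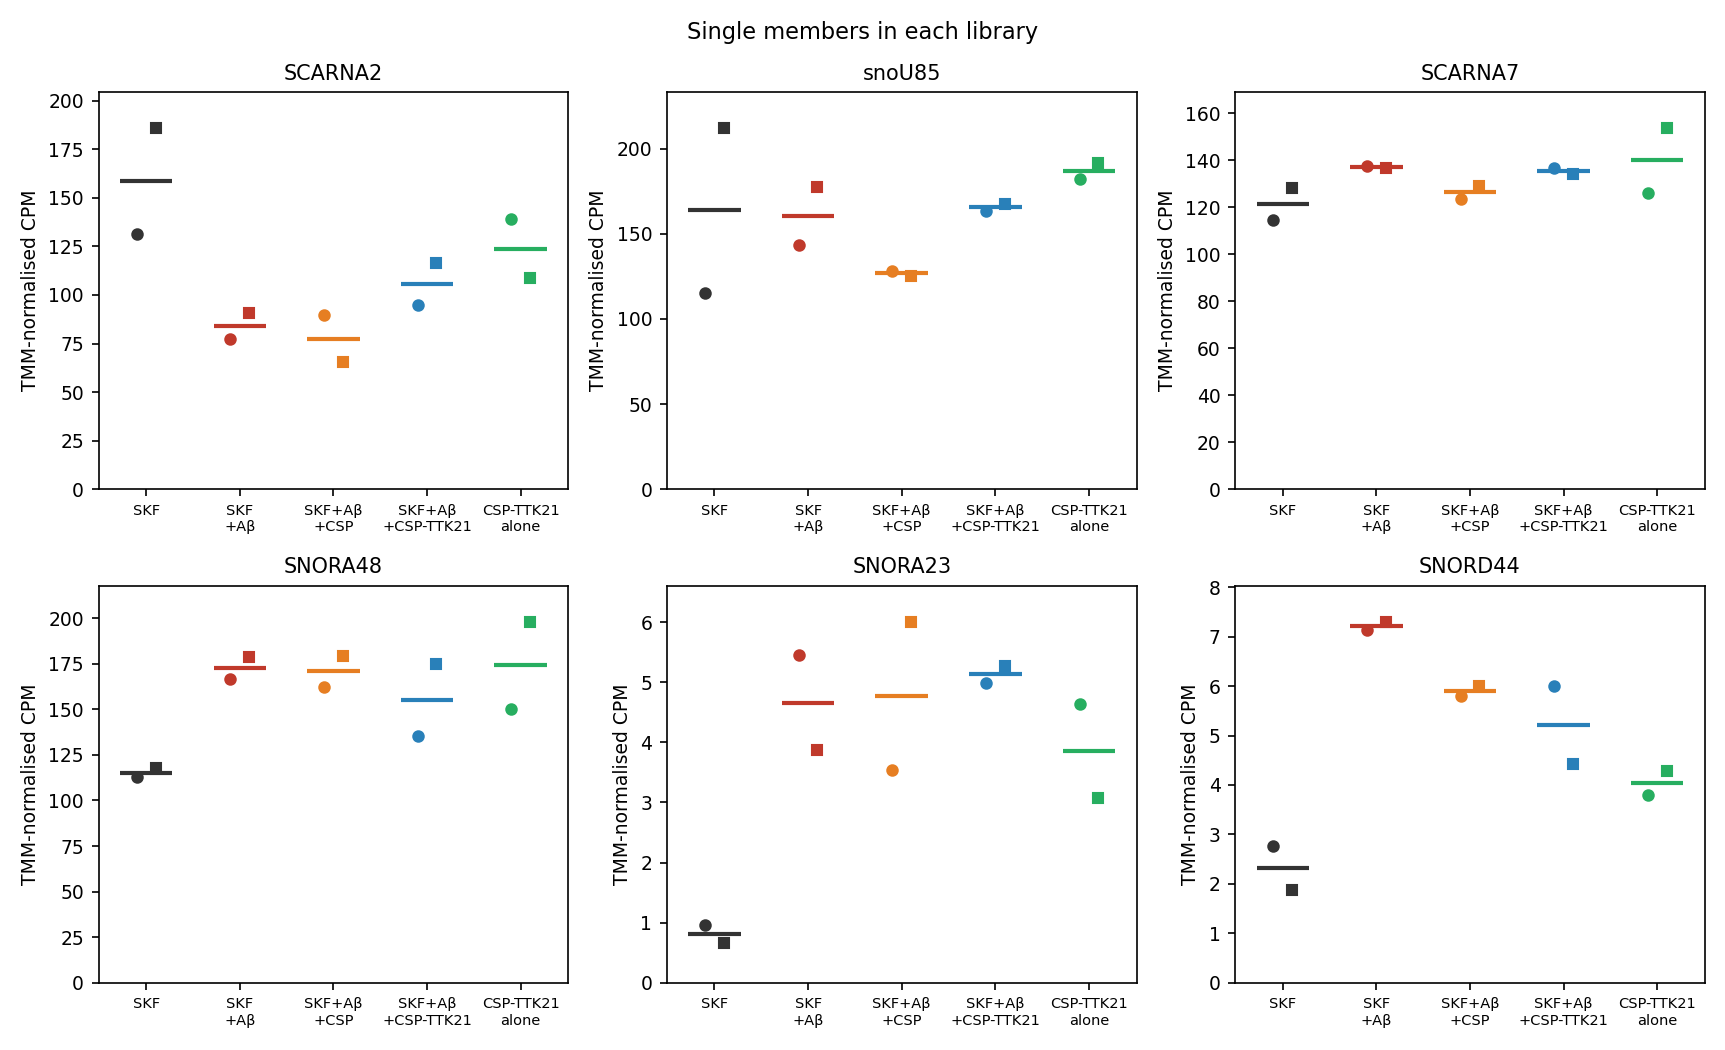
TMM-normalised CPM of 6 members in each library, with circles and squares for the first and second library and bars for the mean of the group. SCARNA2 has its highest mean in SKF, snoU85 differs most between the SKF libraries, SCARNA7 lies between 114 and 153 CPM throughout, and SNORA48, SNORA23 and SNORD44 have both SKF libraries below all others.

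SNORA48, an H/ACA guide for ribosomal RNA, carried the most counts of its class. It had 815 and 881 in SKF, 1193 and 1198 with Aβ added, 1374 and 1224 with Aβ and CSP, 1061 and 1228 with Aβ and CSP-TTK21, and 1067 and 1482 under CSP-TTK21 alone. Every library outside SKF was above both SKF libraries, and the log2 differences from SKF were 0.58, 0.57, 0.43 and 0.60 in the order of the groups (SE 0.16 in each, edgeR adjusted p from 0.0676 to 0.633), so none was called. SNORA68 (ENSRNOG00000051532) and SNORA53 (ENSRNOG00000056599) stood likewise below all others in SKF, with estimates in SKF+Aβ of 0.81 (SE 0.28) and 1.24 (SE 0.46). SNORA73 (ENSRNOG00000052439), a long H/ACA RNA that takes part in cutting the ribosomal precursor, was at -0.59 (SE 0.26) and SNORA49 (ENSRNOG00000054746) at -0.07 (SE 0.30), neither called. Also among C/D rows, the longer SNORD17 (ENSRNOG00000052573) was at -0.59 (SE 0.27, edgeR adjusted p = 0.222).

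The position of SKF at one end could be counted without the filter on groups, over rows with a mean of at least 10 counts in the 10 libraries. Of 126 such members, 27 had both SKF libraries below the other 8 after scaling, and 1 had both above. Over all 14215 rows of that level the shares were 9.83% below and 7.82% above. By class the rows with SKF lowest were 17 of 74 C/D, 9 of 42 H/ACA and 1 of 10 Cajal body, and among the imprinted families 13 of 41. Beside the rows already named, they included SNORA12, SNORA62, SNORA1, SNORA28, SNORD47, SNORD28 and SNORD107, which are named here after their values were seen.

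Summed over their copies, the imprinted families gave more counts per test. SNORD113, of 57 rows, had 73.8 and 71.4 in SKF, 137 and 169 with Aβ added, 107 and 165 with Aβ and CSP, 122 and 122 with Aβ and CSP-TTK21, and 96.9 and 95.4 under CSP-TTK21 alone CPM. SKF was below every other library. The sum was 2.11-fold higher in SKF+Aβ, a log2 fold change of 1.08 (SE 0.18, edgeR adjusted p = 0.0292). It was 0.90 with Aβ and CSP, 0.75 with Aβ and CSP-TTK21, and 0.41 under CSP-TTK21 alone, with edgeR adjusted p-values of 0.0584, 0.102 and 0.63. Over its 33 tested rows the estimates for SKF+Aβ ran from 0.14 to 6.81, and 2 rows were called.

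SNORD115, of 59 rows, is known for base pairing with the transcript of the serotonin receptor Htr2c. Its sum was 64.6 and 62.8 in SKF, 115 and 95.4 with Aβ added, 88.8 and 96.2 with Aβ and CSP, 78.5 and 75.1 with Aβ and CSP-TTK21, and 85.1 and 79.9 under CSP-TTK21 alone CPM. Again no library was as low as SKF, and SKF+Aβ was 1.65-fold SKF (log2 0.72, SE 0.13, edgeR adjusted p = 0.0343). Values in the order of the other groups were 0.54, 0.27 and 0.37, none called. SNORD116, of 36 rows, whose loss is linked to the Prader-Willi syndrome, summed to 36.7 and 36.6 in SKF, 61.2 and 51.7 with Aβ added, 45.7 and 56.5 with Aβ and CSP, 50.5 and 41.6 with Aβ and CSP-TTK21, and 46.1 and 54.9 under CSP-TTK21 alone CPM. It was 0.62 above SKF on the log2 scale in SKF+Aβ (SE 0.17) and missed the call at an edgeR adjusted p of 0.0663. With every name summed, 6 of 109 names were called in SKF+Aβ against SKF, where 2.06% of all rows of that fit were: SNORD113, SNORD115, SNORD44, SNORA63 and SNORA23 higher and SCARNA2 lower.

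**Figure D3:**
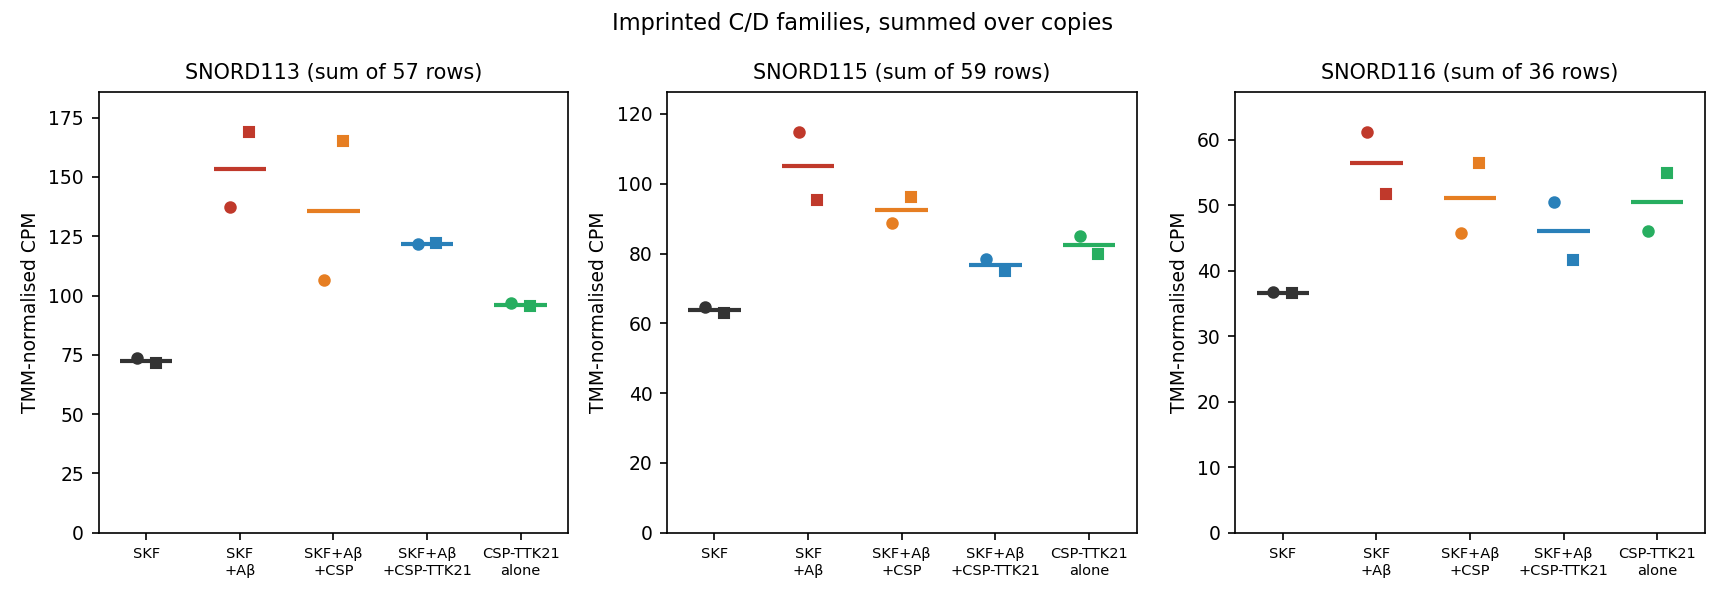
Summed TMM-normalised CPM of SNORD113, SNORD115 and SNORD116 in each library, with circles and squares for the first and second library and bars for the mean. SKF is lowest in each of the 3 panels and the SKF+Aβ mean is highest.

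Single copies had less depth than the sums. The most frequent SNORD115 copy (ENSRNOG00000058531) had 272 and 273 in SKF, 426 and 361 with Aβ added, 408 and 307 with Aβ and CSP, 337 and 305 with Aβ and CSP-TTK21, and 332 and 306 under CSP-TTK21 alone. It was higher in SKF+Aβ by 0.61 on the log2 scale (SE 0.14, edgeR adjusted p = 0.0447). A SNORD113 copy (ENSRNOG00000055085) had 12 and 18 in SKF, 42 and 47 with Aβ added, 59 and 42 with Aβ and CSP, 46 and 54 with Aβ and CSP-TTK21, and 34 and 25 under CSP-TTK21 alone, and rose by 1.65 (SE 0.35, edgeR adjusted p = 0.0402). A second SNORD113 copy (ENSRNOG00000052419) went from 1 and 5 counts in SKF to 58 and 24 in SKF+Aβ, a difference that rests on few reads (log2 3.79, SE 0.77, edgeR adjusted p = 0.0387). The most frequent copies of SNORD113 (ENSRNOG00000056115) and SNORD116 (ENSRNOG00000058825) were at 0.46 and 0.49 in SKF+Aβ, with SEs of 0.34 and 0.17, and were not called. Among imprinted rows with a mean of at least 10 counts, 41 of 41 had a higher mean in SKF+Aβ than in SKF, and 37 had both libraries above both SKF libraries, where 25.3% of all rows of that level did.

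The 3 further comparisons with SKF share its libraries and so are not independent of the first. SKF+Aβ+CSP against SKF called 0 members by edgeR, with 0.02% of all rows called; 55 members had an unadjusted p under 0.05, 50 of them higher, against 19.3% of all rows and 10.3% higher. By limma 0 were called, and by DESeq2 4 of the 12 members with an adjusted p, of which 1 was higher, against 5.12% of all rows that had one. SKF+Aβ+CSP-TTK21 against SKF called 0 members by edgeR and limma, and 0 by DESeq2, which gave an adjusted p to only 9 of them, with 0.00665% of all rows called by edgeR; 39 had an unadjusted p under 0.05, 30 of them higher, against 19.6% and 10.8%. Without the second SKF library this comparison called 3 of 221 members by edgeR, all higher, against 2.14% of all rows, so that the members' share was below that of all rows. CSP-TTK21 alone called 0 by all 3 tools, and 0% of all rows by edgeR; 22 members were under 0.05, all 22 higher, against 7.78% and 4.16%. The median log2 difference of tested members from SKF was 0.57 with Aβ and CSP, 0.25 with Aβ and CSP-TTK21, and 0.32 under CSP-TTK21 alone. For the imprinted rows it was 1.03 in SKF+Aβ, 0.98, 0.71 and 0.49, and for the Cajal body rows -0.28, -0.38, -0.15 and -0.16.

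**Figure D4:**
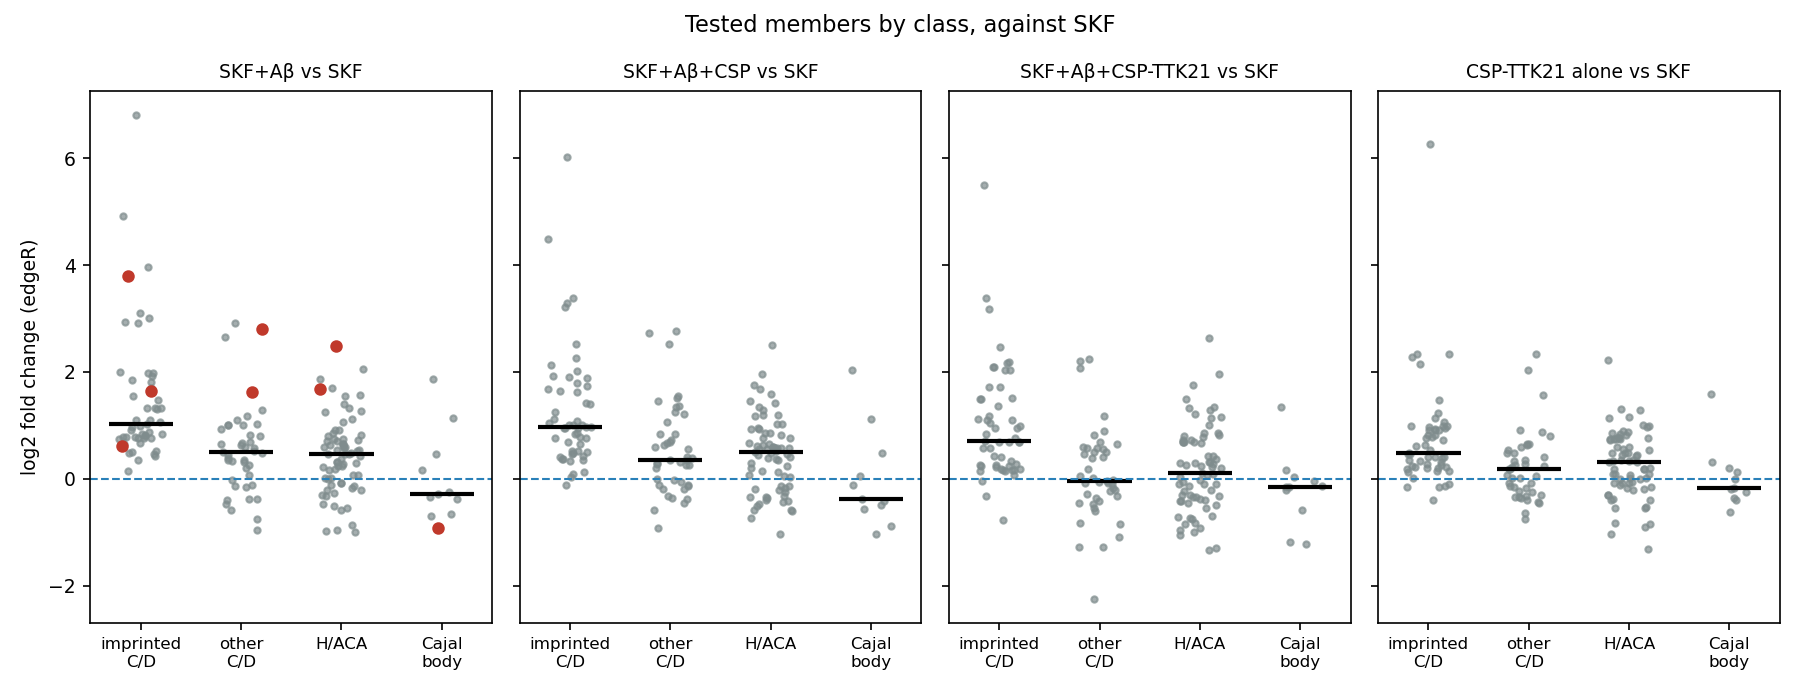
Log2 fold change against SKF (edgeR) of each tested member in 4 comparisons, by class. Red points have an adjusted p under 0.05 and occur in the SKF+Aβ panel alone; black bars are medians, highest for the imprinted C/D rows in every panel, and the dashed line marks no difference.

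What CSP-TTK21 changed on the background of SKF and Aβ was compared directly. SKF+Aβ+CSP-TTK21 against SKF+Aβ called 0 members by edgeR, limma and DESeq2, and 0% of all rows by edgeR, with 14 of 178 members under an unadjusted 0.05, all lower. Of all rows 6.59% were under this limit, and 4.06% were under it and lower. Over rows with a mean of at least 10 counts in the 10 libraries, which does not depend on the group, the mean was lower with CSP-TTK21 for 89 of 126 members, against 46.9% of all rows of that level. These were 57 of 74 C/D, 27 of 42 H/ACA and 5 of 10 Cajal body rows. The comparison shares the SKF+Aβ libraries with the first one. Against SKF+Aβ+CSP, the vehicle, the count was again 0 by the 3 tools, of which DESeq2 gave an adjusted p to 66 members, with 0% of all rows by edgeR and 17 members under 0.05, 14 of them lower, against 8.78% of all rows and 5.61% lower. Of the 126 members of that level 84 had a lower mean than under the vehicle, against 47.7% of all rows. SKF+Aβ+CSP against SKF+Aβ gave 0 members by the 3 tools and 0% of all rows, with 3 members under 0.05 against 2.18%. The SNORD115 sum was -0.45 on the log2 scale with CSP-TTK21 against SKF+Aβ (SE 0.13, edgeR adjusted p = 0.742) and the SNORD113 sum -0.33 (SE 0.18, adjusted p = 0.754). SCARNA2 was at 0.33 (SE 0.20). These sizes were not told apart from 0 with 2 libraries a group, and the data do not show that the groups were alike. In the edgeR F test over the 5 groups 0 members were called, by limma 0 and by DESeq2 2 of the 12 with an adjusted p, with 0.00665% of all rows by edgeR and 4.33% by DESeq2; 36 members had an unadjusted p under 0.05, against 14.3% of all rows.

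**Figure D5:**
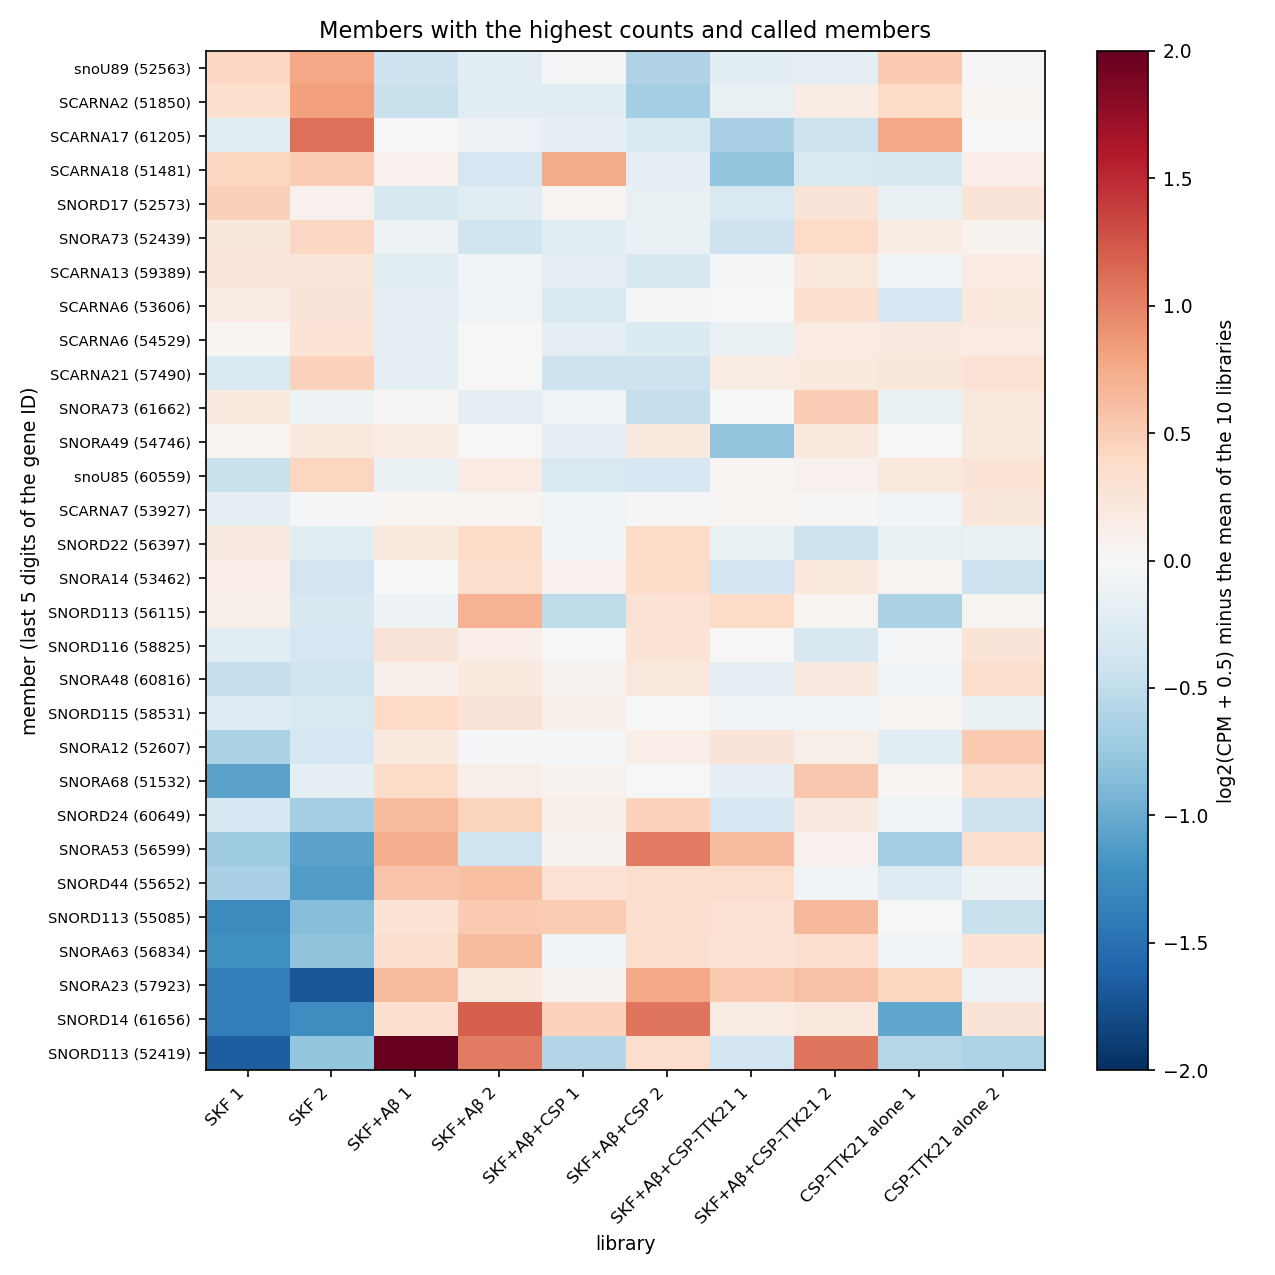
Members with the highest counts in each class and the called members, 30 rows sorted by the SKF+Aβ difference from SKF, over the 10 libraries. Colour is log2(CPM + 0.5) minus the mean of the row, red above and blue below: SCARNA2 and snoU89 at the top are red in SKF, and SNORA23, SNORD14 and SNORD113 at the bottom are blue there.

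The genes that encode the proteins of these particles were not called in any comparison by edgeR. This held for the C/D particle (4 of 5 listed genes tested, among them Fbl, which encodes fibrillarin), the H/ACA particle (5 of 6, among them Dkc1, which encodes dyskerin), the assembly factors (7 of 8) and proteins of the Cajal body and nucleolus (9 of 9, among them Coil, which encodes coilin). Their median log2 differences in SKF+Aβ against SKF were -0.03, -0.17, -0.20 and -0.05. Dkc1 stood at 47.5 ± 7.68 CPM in SKF and 29.9 ± 1.06 in SKF+Aβ (SD, n = 2), a log2 difference of -0.67 (SE 0.21, edgeR adjusted p = 0.0888). Fbl stood at 25.8 ± 7.34 and 21.6 ± 3.98 CPM. Other genes of these lists had higher estimates in the same comparison. Npm1 was at 0.42 (SE 0.13, edgeR adjusted p = 0.0829), Naf1 at 0.49 (SE 0.16, edgeR adjusted p = 0.0973) and Nop58 at 0.29 (SE 0.13, edgeR adjusted p = 0.21).

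Host genes, in whose introns small nucleolar RNAs lie, were listed from common knowledge, and 30 rows with one of the 62 listed names were tested, of which Rps2 has 2. The list also holds Ube3a, which is not itself a host. In SKF+Aβ against SKF, 2 listed genes rose and 2 fell, where 1.22% of all rows rose and 0.852% fell, with a median of -0.12 over the 30 rows. Ube3a, the imprinted ubiquitin ligase whose antisense transcript runs through SNORD115 and SNORD116, had 141 and 148 CPM in SKF and 238 and 204 in SKF+Aβ, a rise of 0.61 (SE 0.13, edgeR adjusted p = 0.0402). Snrpn and Snurf, also on the list, were not called. Snrpn had a mean of 3.60 CPM in SKF and 7.01 in SKF+Aβ (log2 0.96, SE 0.32, edgeR adjusted p = 0.108). Snurf was at 0.39 (SE 0.25, edgeR adjusted p = 0.371). Eif4a2, an initiation factor of translation, rose by 0.59 (SE 0.13, edgeR adjusted p = 0.0431). Rpl13a, a ribosomal protein gene that hosts several C/D box RNAs, had 427 and 436 CPM in SKF and 232 and 276 in SKF+Aβ, at -0.76 (SE 0.14, edgeR adjusted p = 0.0355), and Rpsa was at -0.61 (SE 0.13, edgeR adjusted p = 0.0415). In the other 6 comparisons no listed gene was called by edgeR.

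For 11 members with a unique name, the surrounding gene was taken from the RefSeq gene table of another assembly, by name and neighbourhood only. In SKF+Aβ against SKF the median was 0.62 for the members and 0.07 for their hosts, of which 0 were called by edgeR, and 7 of 11 members and 7 of 11 hosts had an estimate above 0. SNORA23 lies in Ipo7, which was 0.61 higher (SE 0.15, edgeR adjusted p = 0.0518) while SNORA23 was 2.49 higher. SNORD19 was at 0.50 and its host Gnl3 at 0.51. SNORA53 was at 1.24 and its host Slc25a3 at -0.02, SCARNA1 at 1.86 and its host Ppp1r8 at -0.10, and SNORD17 at -0.59 with its host Snx5 at 0.46. These pairs were named after their values were seen. Reads from the intron of a host cannot be told apart from those of the small RNA itself in these counts. The program that made the counts and its use of strand are not given in the sources used here. Copies with near-identical sequence may likewise share reads, which the sums over a name avoid only where the copies carry that name.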

How the data were processed

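Ribosomal RNA was depleted from CA1 RNA with a stranded kit, and the libraries were sequenced as pairs. The authors' methods name Trim Galore for trimming, Samtools for duplicate removal, TopHat2 for alignment and Cufflinks with Cuffmerge for quantification; both a rat and a mouse assembly are named, and the submitters' processing notes list a human assembly and STAR, RSEM, HISAT2 and Salmon without a role. The authors deposited whole-number raw counts per rat Ensembl gene for each of the 10 libraries, without normalization. Which of these programs, if any, made the deposited whole numbers, and its use of strand, are not given in the sources used here.

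Counts were analysed with R 4.3.3 and edgeR 4.0.16. Rows passing filterByExpr by group (15032 of 32545) were scaled with TMM factors and fitted with a mean per group over all 10 libraries (common biological coefficient of variation 0.136). A call is an adjusted p under 0.05 (Benjamini-Hochberg, over all rows tested). Class shares used all rows, without a filter, and exact permutation tests over libraries (Python 3.11.15, SciPy 1.17.1). A figure legend of the paper calls the libraries of a group biological replicates, and its methods give slices of 2 biological samples for each repeat. Whether groups share animals is not stated. Alternatives were limma 3.58.1, DESeq2 1.42.0, RLE factors, other filters, the replicate number as a block, only the 4 libraries compared, and each library left out. The code of the fit was also run on simulated counts, which checks the code and not the results given here.

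The members and all lists were chosen with earlier results of these data known. Members were named by a rule: called members with the largest change, the 10 lowest p-values over the groups, the 5 highest rows of each class, the imprinted sums, and called genes of the lists. SCARNA1, SNORA12, SNORD17, Fbl, Dkc1, Coil, Npm1, Naf1, Nop58, Snrpn, Snurf and the hosts were named after their values were seen. Sequences of the members were not used here.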

Additional observations from a re-analysis of the deposited data

How the results depend on the processing

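No class share, ratio or named member that was called changed direction under any alternative run. The ratio of C/D to H/ACA counts, not called, went from -0.13 to 0.06 (log2 difference from SKF) with snoU85, snoU89 and snoU109 moved. The number of members called did change. For SKF+Aβ against SKF it was 8 by edgeR, 4 of only 15 with an adjusted p by DESeq2, 0 in a fit of only the 4 libraries compared, 30 with no filter on low counts and 58 at an unadjusted p under 0.05, and with each library left out in turn it ranged from 0 to 7. With no filter, calls against SKF numbered 21 for SKF+Aβ+CSP, 17 for SKF+Aβ+CSP-TTK21, and 4 for CSP-TTK21 alone, and SKF+Aβ+CSP against SKF+Aβ gave 1, SKF+Aβ+CSP-TTK21 against SKF+Aβ+CSP gave 2 and the F test 30, all from 0. With no filter the share of members called was below that of all rows: 3.19% against 5.19% for SKF+Aβ, where edgeR's filter gave 4.49% against 2.08%, and 2.23% against 2.99%, 1.81% against 3.57% and 0.426% against 0.622% for the 3 further comparisons with SKF, and 0.106% against 0.261%, 0.213% against 1.22% and 3.19% against 5.55% for the comparisons that gave 1 and 2 and the F test. At an unadjusted p under 0.05 the first 3 gave 55, 39 and 22, and the comparisons within the Aβ groups 3, 14 and 17. SKF+Aβ+CSP against SKF gave 4 calls by DESeq2 and 2 of 69 with at least 10 counts in every library (2.9%, against 0.418% of all rows), the F test 2 by DESeq2, and SKF+Aβ+CSP-TTK21 against SKF 0 to 3 with a library left out. For the other 5 comparisons and the F test each library left out gave 0. The cause of these changes was not tested.

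The share of C/D RNAs gave a p over the 5 groups of 0.432, and a log2 difference from SKF of 0.0737, without the imprinted families, and a difference of 0.27 (exact permutation p = 0.178) when snoU85, snoU89 and snoU109 were left out too. For Cajal body RNAs the p over the groups was 0.0635 on a total without mitochondrial and other small structural RNAs and 0.102 with snoU85 and snoU89 added, and the difference from SKF was -0.46 (exact permutation p = 0.0222) without the highest row. With each library left out, the log2 difference from SKF ranged from 0.17 to 0.40 for C/D, 0.36 to 0.47 for H/ACA, -0.39 to -0.15 for Cajal body, 0.56 to 0.64 for the imprinted families, 0.06 to 0.26 for all members, -0.19 to -0.07 for C/D to H/ACA, -0.76 to -0.63 for Cajal body to H/ACA and 0.58 to 0.67 for members to other small RNAs. The p over the 5 groups ranged, in the same order, from 0.00847 to 0.116, 0.0550 to 0.224, 0.00317 to 0.0825, 0.00952 to 0.0466, 0.109 to 0.338, 0.270 to 0.748, 0.0116 to 0.0307 and 0.00635 to 0.0455 (exact permutation).

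Same-numbered libraries were taken to share only a number, since the correlation of their deviations was above 0.1 in 4 of 10 pairs of groups over all rows tested (-0.07 to 0.24) and in 3 of 10 over the members (-0.12 to 0.32), and not in every pair. With the replicate block, SKF+Aβ against SKF called 11 members (6.18%, against 2.83% of all rows), SKF+Aβ+CSP-TTK21 against SKF 2 (1.12% against 0.718%), and the p over the 5 groups became 0.0583 for C/D (log2 difference from SKF 0.29, p = 0.0800), for Cajal body to H/ACA and for members to other small RNAs, and 0.0667 for the imprinted families (exact permutation within numbers). Depth limits single rows: most members had too few counts for a test, and a row with 5 counts in SKF carries a large error.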
